A study of Drosophila melanogaster with 3 samples.

Results

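The genes described here encode the membrane trafficking machinery of Drosophila melanogaster and its vacuolar ATPase, chosen by symbol. They are the genes of the Ensembl dm6 annotation whose symbol starts with Syx (syntaxins) or Vha (vacuolar ATPase), with Rab followed by a digit or X, or with Sec or Vps followed by a digit. The rule took 125 of the 18164 genes annotated on the chromosome arms: 10 Syx, 33 Vha, 36 Rab, 19 Sec and 27 Vps genes. All 125 are protein-coding, of 13945 protein-coding genes. A stem is a spelling, so it holds genes of several complexes, and a few members of the Rab stem (Rab3-GAP, Rab3GAP1, Rab3-GEF) are regulators of Rab proteins and not Rab proteins. What was measured at these genes was the binding of HmgD, a high-mobility-group protein that bends the DNA it binds and shows little preference for particular sequences, by chromatin immunoprecipitation and sequencing (ChIP-seq). The single group consisted of 3 biological replicates of whole embryos of both sexes, aged 0 to 24 h, from 1 transgenic line that stably expresses HmgD fused at its C terminus to green fluorescent protein, and the tag was the target of the antibody. No second genotype, treatment or stage was sampled. Whole embryos hold many cell types, so binding in a few cells and weak binding in all cells cannot be told apart.

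Membrane trafficking moves proteins and lipids between organelles in vesicles. The Sec61 channel passes new proteins into the endoplasmic reticulum, the COPII coat (Sec13, Sec23 and others) buds vesicles from it, Rab GTPases mark each compartment and recruit tethers, the exocyst tethers secretory vesicles to the plasma membrane, and syntaxins are SNARE proteins that drive the fusion. Vps genes, named for vacuolar protein sorting in yeast, cover the ESCRT complexes that sort ubiquitinated cargo into endosomes, the retromer that returns receptors from them, and the HOPS tether of lysosomes. The vacuolar ATPase acidifies these compartments: its V1 sector hydrolyses ATP in the cytosol and its V0 sector carries protons across the membrane, and several subunits are encoded by more than 1 gene in flies.

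The DNA under the strongest promoter peak of each stem, and under further peaks that hold the word TATCGATA, is shown because the words near the summits are compared below. Each stretch is the plus strand of the RefSeq Release 6 (dm6) sequence, reaches at most 100 bp either side of the summit and stops where an annotated transcript's untranslated region starts. Capitals mark TATCGATA (the element bound by the replication and growth factor Dref), CGATA (the core of the site of the insulator protein BEAF-32, contained in TATCGATA) and GGTCACAC (a core promoter element known as Motif 1), on either strand. The stretches printed for Vps33B (chr3R:25473162-25473362) and Vha55 (chr3R:12627830-12627971), the strongest members, hold none of these words. In the wider search from 250 bases before to 50 after each TSS, Vps33B had CGATA, and Vha55 had TATCGATA and CGATA. The stretches of Rab30 (chr2L:7032607-7032720), Rab7 (chr3R:23992917-23993007), Rab8 (chr3L:19871079-19871138), Syx18 (chr3R:24625563-24625670) and Vps16A (chr3R:9266905-9267018) hold TATCGATA, and that of Sec61alpha (chr2L:6480700-6480900) holds the core alone.
Vps33B: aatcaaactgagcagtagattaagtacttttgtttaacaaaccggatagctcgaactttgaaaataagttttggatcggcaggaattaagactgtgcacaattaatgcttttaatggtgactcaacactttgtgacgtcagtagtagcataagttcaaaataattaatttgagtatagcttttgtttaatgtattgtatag
Vha55: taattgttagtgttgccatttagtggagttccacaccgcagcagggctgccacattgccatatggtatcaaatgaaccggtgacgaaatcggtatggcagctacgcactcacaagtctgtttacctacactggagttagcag
Rab30: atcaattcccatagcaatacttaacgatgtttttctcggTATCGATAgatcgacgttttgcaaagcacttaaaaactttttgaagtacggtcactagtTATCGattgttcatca
Sec61alpha: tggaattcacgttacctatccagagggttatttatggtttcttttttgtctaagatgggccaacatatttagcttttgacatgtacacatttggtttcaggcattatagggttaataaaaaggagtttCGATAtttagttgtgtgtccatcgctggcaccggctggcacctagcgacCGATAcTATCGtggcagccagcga
Syx18: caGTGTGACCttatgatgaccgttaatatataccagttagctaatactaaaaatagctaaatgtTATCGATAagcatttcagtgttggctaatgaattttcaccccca
Rab7: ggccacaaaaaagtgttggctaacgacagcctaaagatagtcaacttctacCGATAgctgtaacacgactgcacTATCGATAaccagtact
Rab8: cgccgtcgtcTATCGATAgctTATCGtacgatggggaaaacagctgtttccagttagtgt
Vps16A: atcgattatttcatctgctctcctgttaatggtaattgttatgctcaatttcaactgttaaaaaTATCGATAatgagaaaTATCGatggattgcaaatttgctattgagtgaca

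Promoter binding of HmgD was listed at 46 of the 125 genes (36.8%). A gene was counted when the summit of a peak in the list that passed the irreproducible discovery rate (IDR) step lay within 500 bp of any of its transcription start sites (TSSs). Over the whole annotation the share was 15.5%, and over protein-coding genes it was 18.7% (2609 of 13945). The IDR list held 2964 peaks, which were the entries of highest signal among 30000 candidates called on the pooled replicates, the lowest kept signal being 114.7 and the highest not kept 114.6. To give the spread between replicates, the 2964 strongest candidates of each replicate's own list were read in the same way. Members then had a promoter summit in 41.6% of cases in replicate 1, 36.8% in replicate 2 and 28% in replicate 3, a mean of 35.5% ± 6.9 (SD, n = 3). Protein-coding genes had 20.5%, 17.9% and 16.6%, a mean of 18.3% ± 1.98 (SD, n = 3). The lowest value for the members lay above the highest for protein-coding genes. No test was made of this difference, because genes are not replicates and the members were chosen by name. The lists hold no read counts, so sequencing depth is unknown. Peak signal is the authors' own value, and because its scale is not the same in each list it is compared here only within a list.

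The share fell when only sites supported by a pair of replicates were counted, for the members and for protein-coding genes alike. Without replicate 1, a setting that keeps the 1726 pooled candidates which replicates 2 and 3 both rank among their strongest, 27 members (21.6%) had a promoter peak against 11.1% of protein-coding genes. Without replicate 2 the count was 23 (18.4% against 10.8%, 1541 candidates), and without replicate 3 it was 37 (29.6% against 12.8%, 1808 candidates). These lists are shorter than the IDR list by construction. When each peak was given only to the gene with the nearest TSS, 28 members (22.4%) had one, against 13.9% of protein-coding genes.

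The 5 stems differed in how many promoters had a candidate at all and in how many of these were in the IDR list. All 10 Syx genes had a promoter candidate in the pooled list, as did 18 of 19 Sec, 21 of 27 Vps, 26 of 36 Rab and 19 of 33 Vha genes. Over the members this was 94 genes (75.2%), against 56% of protein-coding genes, and 24 of the 31 members without a candidate were Vha or Rab genes. Peaks of the IDR list stood at 6 Syx genes (60%), 8 Sec genes (42.1%), 13 Vha genes (39.4%), 11 Rab genes (30.6%) and 8 Vps genes (29.6%). Among genes with a candidate the order changed, with Vha highest at 68.4%, followed by Syx at 60%, Sec at 44.4%, Rab at 42.3% and Vps at 38.1%, against 33.4% of protein-coding genes. Over the replicates' own strongest candidates the means were 53.3% ± 5.77 for Syx, 38.6% ± 12.2 for Sec, 34.3% ± 3.5 for Vha, 32.4% ± 8.49 for Rab and 32.1% ± 11.9 for Vps (SD, n = 3 each). Syx lay above Vha, Rab and Vps in each replicate. The other 4 stems overlapped over the replicates, so their order is not separated from the spread. With the nearest gene only, the Vps share was 11.1%, below the 13.9% of protein-coding genes, and without replicate 1 the Sec share was 10.5%, below 11.1%.

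**Figure D1:**
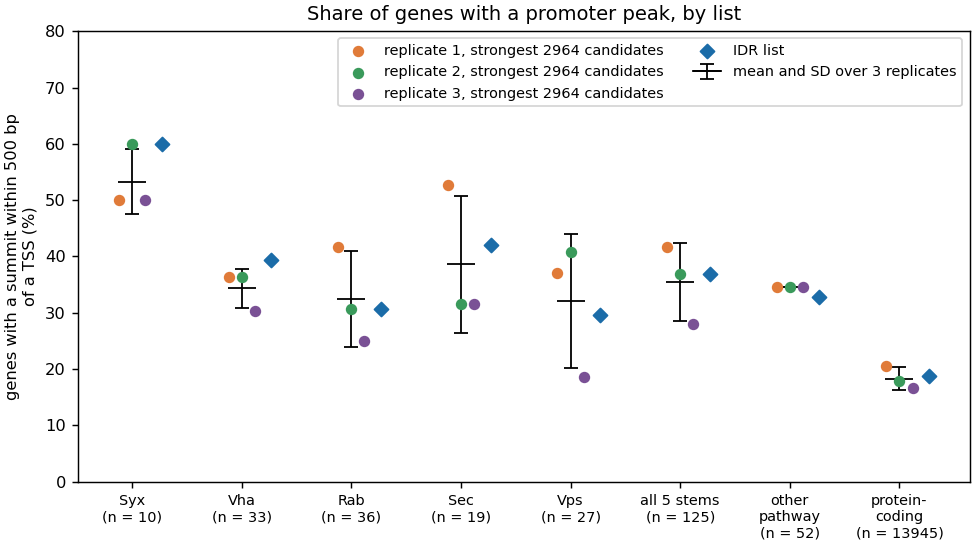
Share of genes with a summit within 500 bp of a TSS (%, vertical axis) for each stem, the other trafficking genes and protein-coding genes. Round points are the 2964 strongest candidates of each replicate, bars the mean and SD over 3 replicates, and diamonds the IDR list, which runs from 29.6% (Vps) to 60% (Syx) over the stems and is 18.7% for protein-coding genes.

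Signals at the called members were moderate within the IDR list. Their median was 150.8 (quartiles 133.2 and 211.1, range 115.1 to 378.9), beside a median of 165.9 for all called protein-coding genes (quartiles 135.3 and 217.8, highest 1399). The stems' medians among called genes were 217.1 for Vha, 175.9 for Vps, 167.9 for Rab, 147.7 for Syx and 126.4 for Sec. A high share and a high signal did not go together over the stems, since no Syx gene exceeded 148.5 while Vps, with the lowest share, held the strongest peak.

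**Figure D2:**
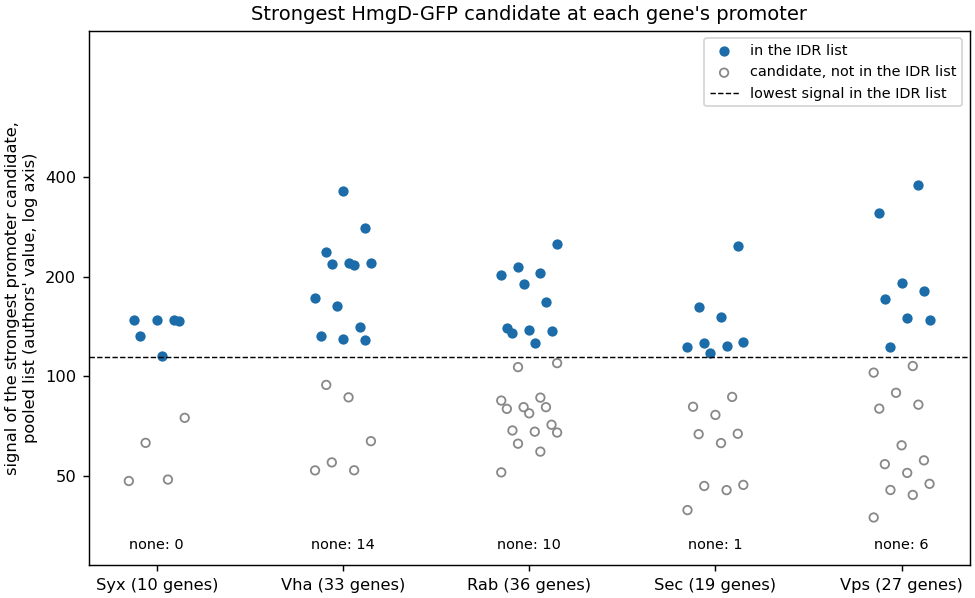
Signal of the strongest promoter candidate of each member in the pooled list (authors' value, log axis), by stem. Filled points are in the IDR list and open points are not, the dashed line is the lowest kept signal (114.7), and the number under each stem is of genes with no candidate (14 Vha and 10 Rab genes).

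Among the genes of the vacuolar ATPase, HmgD peaks stood at genes of both sectors, and no subunit encoded by several genes had a peak at every one of them. Of the 13 genes for V1 subunits 6 were called (46.2%), of the 18 for V0 subunits 6 (33.3%), and of the 2 accessory genes 1. The share of protein-coding genes was 18.7%, and counts over so few genes do not set a sector apart. The strongest called Vha gene was Vha55 (subunit B, the non-catalytic nucleotide-binding subunit), with a signal of 363.6 and rank 116 of the pooled list. A rank percentile, where 100 is the strongest candidate of a list, is given for the strongest candidate within the promoter window of the gene in each replicate. At 8 of the 46 called members this was in some replicate another candidate than the one at the pooled summit. For Vha55 the percentile was 99.56 in replicate 1, 99.56 in replicate 2 and 99.41 in replicate 3, a mean of 99.5 ± 0.0847 (SD, n = 3). This was the narrowest spread among the members described in full. The next were Vha16-5 (a c subunit of the proton-carrying ring; signal 279.9, rank 280) and VhaPPA1-1 (a c'' subunit; 237.1, rank 501). Vha16-5 stood at the percentiles 99.46, 98.00 and 98.08 in replicates 1 to 3 (mean 98.5 ± 0.82), and VhaPPA1-1 at 98.85, 98.14 and 95.18 (mean 97.4 ± 1.95). In replicate 3 the strongest candidate at VhaPPA1-1 was another one, and the candidate at the pooled summit stood at 81.4. The Vha16-5 summit lay 274 bp upstream of that gene and closer to a TSS of CG12299.

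By subunit, the catalytic subunit A had peaks at Vha68-2 (219.9) and Vha68-1 (141.1) and no candidate at Vha68-3. Subunit D had a peak at Vha36-1 (217.1) and no pooled candidate at Vha36-2 or Vha36-3. Subunit a, the large membrane subunit, had peaks at Vha100-2 (218.2), a candidate that was not kept at Vha100-1 (52.11) and none at Vha100-3, Vha100-4 and Vha100-5. The c subunit had peaks at Vha16-1 (163.4) and Vha16-5, and no candidate at Vha16-2, Vha16-3 and Vha16-4. The e subunit had peaks at VhaM9.7-b (129.5) and VhaM9.7-c (128.5). The single genes Vha44 (subunit C, 172.1) and Vha13 (subunit G, 219.8) were called as well, and so was the accessory gene VhaAC45 (132.4). Vha26 (subunit E), the only gene for its subunit, was the strongest Vha gene not kept, at 94.30. Neither gene of subunit F or of subunit d had a kept peak. The replicates differed most at Vha68-1, whose percentiles were 98.04, 95.05 and 33.21, the last being of a candidate more than 200 bp from the pooled summit, while Vha13 stood at 97.75, 98.31 and 97.67. Of the 13 called Vha genes, 8 were among the 2964 strongest of all 3 replicates. Without replicate 1 the count of Vha genes was 8 (24.2%, against 11.1% of protein-coding genes), and without replicate 2 it was 7 (21.2%, against 10.8%).

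**Figure D3:**
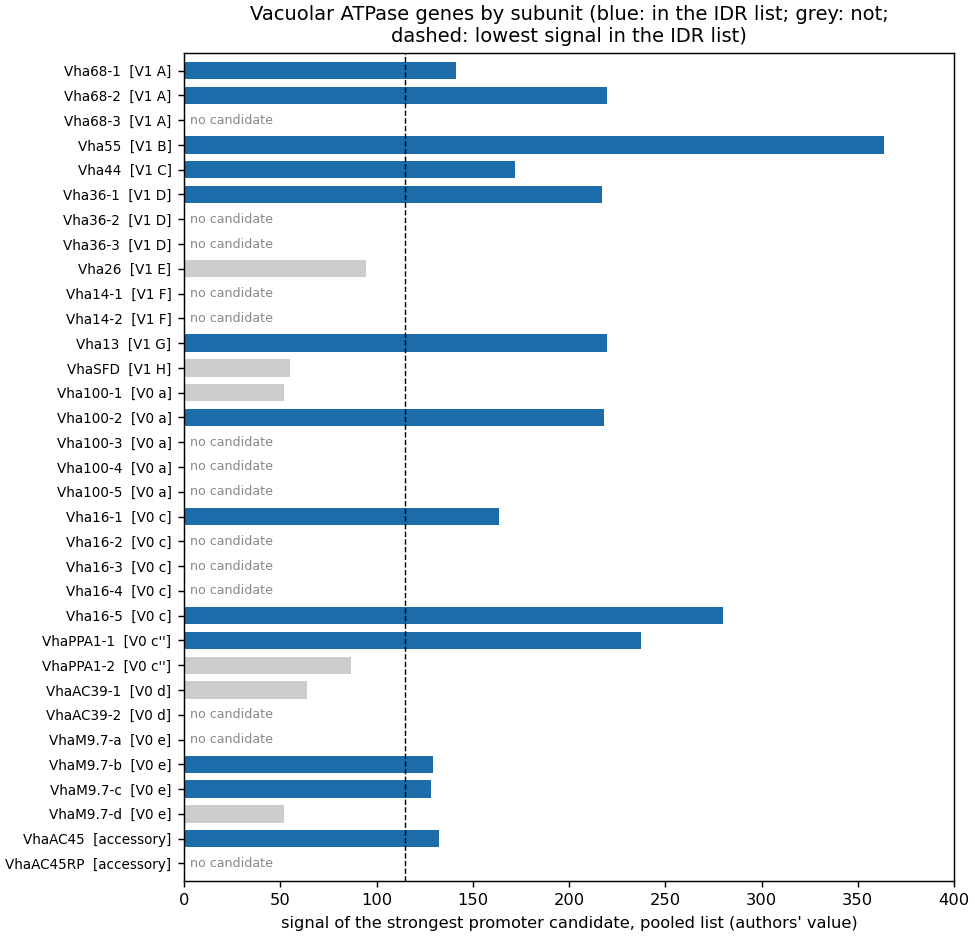
Signal of the strongest promoter candidate in the pooled list (authors' value, horizontal axis) for the 33 vacuolar ATPase genes, with the subunit in brackets. Blue bars are in the IDR list, grey bars are not, and the dashed line is the lowest kept signal; Vha55 reached 363.6 and 14 genes had no candidate.

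Among Rab genes the peaks covered GTPases of the secretory and of the endocytic routes. Rab30, which acts at the Golgi, was the strongest, with a signal of 251.0 and rank 429, and stood at the percentiles 97.26, 97.61 and 99.18 (mean 98.0 ± 1.02, SD, n = 3). Rab7, the GTPase of late endosomes, followed at 213.3 (rank 680; percentiles 97.04, 98.02 and 96.48; mean 97.2 ± 0.778). Rab14 had a signal of 204.5 (rank 760; percentiles 91.60, 97.68 and 98.93; mean 96.1 ± 3.92), replicate 1 being the lowest. Rab8, which acts in secretion to the plasma membrane, had 202.7, and Rab2, which acts at the Golgi, had 190.3. The remaining called genes were Rab3GAP1 (167.9), Rab27 (140.4), Rab10 (137.7), RabX1 (137.1), Rab5 of early endosomes (135.5) and Rab1 of traffic from endoplasmic reticulum to Golgi (126.1). Rab1 and Rab10 were high in replicates 1 and 2 and fell to percentiles of 51.91 and 60.69 in replicate 3. The strongest Rab candidate not kept was Rab21 (109.7), which was among the strongest of replicate 1 alone. Rab4, a recycling GTPase, had no pooled candidate, and none of the related genes Rab9D, Rab9Db, Rab9E, Rab9Fa, Rab9Fb and RabX2 on chromosome X had one in any list. These 6 genes resemble each other in sequence, and reads that map to several copies may have been lost, which was not tested. Without replicate 1 or without replicate 2 the Rab count was 7 (19.4%), against 11.1% and 10.8% of protein-coding genes.

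Rab11, the GTPase of recycling endosomes, had a strong peak outside its promoter. The peak lay in an intron, 1798 bp downstream of the nearest TSS of the gene (dm6, chromosome 3R, 21113004 to 21113407), with a signal of 272 and rank 313, above that of every Rab promoter. Its percentiles were 97.6, 98.3 and 99.2 in the 3 replicates. The candidate at the Rab11 promoter had a signal of 68.14 and was not kept, and replicate 3 had no candidate there. This gene was singled out after its values were seen. Vha16-1 was the only other member with IDR peaks in its body outside the promoter (signals 127.2 and 118.8, 509 and 1530 bp downstream of the TSS), and 552 of the 13945 protein-coding genes had such a peak.

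Among Sec genes, the translocon genes Sec61alpha and Sec63 had the highest signals. Of 4 translocon genes 3 were called, beside 18.7% of protein-coding genes, and counts over so few genes do not set a complex apart. Sec61alpha, the channel itself, had a signal of 247.2 and rank 446, with percentiles of 98.94, 96.17 and 98.46 (mean 97.9 ± 1.48, SD, n = 3). Sec63, which couples the channel to luminal chaperones, had 162.2 (rank 1400; percentiles 97.53, 94.38 and 97.48; mean 96.5 ± 1.81). Sec61gamma, a small subunit, had 122.9, and Sec61beta was not kept at 66.98. Of the 6 exocyst genes of this stem 3 were called: Sec8 at 151.2 (rank 1639, percentiles 94.59, 93.04 and 92.56, mean 93.4 ± 1.06), Sec5 at 126.1 and Sec3 at 118.0. Of 6 COPII genes, Sec13 (126.7) and Sec23 (123.3) were called. Sec13, Sec23 and Sec3 stood at percentiles of 30.77, 58.20 and 43.61 in replicate 3, while each lay at 89.07 or above in the other two. The strongest Sec candidate not kept was Sec20 (86.75), and Sec22 had none in the pooled list. The Sec count was 2 without replicate 1 (10.5%), 3 without replicate 2 (15.8%) and 5 without replicate 3 (26.3%). Protein-coding genes had 11.1%, 10.8% and 12.8%.

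Among Vps genes the 2 highest signals were far above the rest. Vps33B, a Sec1/Munc18 protein that regulates SNAREs, had the highest signal of all members, at 378.9 and rank 105, at a summit nearer to a TSS of its neighbour Fur1, with percentiles of 99.82, 99.68 and 97.54 (mean 99.0 ± 1.28, SD, n = 3). Vps36, a subunit of ESCRT-II, followed at 310.7 (rank 200; percentiles 99.65, 98.70 and 98.18; mean 98.8 ± 0.743). The third was Vps60, an ESCRT-III relative, at 191.2 (rank 926; percentiles 97.38, 96.90 and 92.27; mean 95.5 ± 2.82). With Vps28 of ESCRT-I (181.1), 3 of the 9 ESCRT genes of this stem were called. Vps29 (170.8) was the only called gene of the 3 retromer genes, and neither Vps26 nor Vps35 had a pooled candidate. Vps45, another Sec1/Munc18 protein, had 150.4, Vps16A of the HOPS tether 148.5 and the lipid transfer gene Vps13 122.5. None of the 3 GARP tether genes of this stem (Vps51, Vps52 and Vps53) was called. Beside the 18.7% of protein-coding genes, counts over so few genes do not set a complex apart. Vps8 was the strongest candidate not kept (107.5), followed by Vps20 (102.7), which was among the strongest of replicates 1 and 2 and had no candidate in replicate 3. The Vps count was 5 without replicate 1 (18.5%, against 11.1% of protein-coding genes) and 4 without replicate 2 (14.8%, against 10.8%).

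Among syntaxin genes the share in the IDR list was the highest of the 5 stems, and the signals were low and close together. Syx18, whose human relative acts at the endoplasmic reticulum, had a signal of 148.5 (rank 1707; percentiles 90.53, 97.31 and 90.88; mean 92.9 ± 3.82, SD, n = 3). Syx7, an endosomal syntaxin, had 148.2 (rank 1715; percentiles 95.93, 94.74 and 95.74; mean 95.5 ± 0.639). These were of different summits: replicate 1 matched the pooled summit 39 bp upstream of the start, while replicates 2 and 3 matched a second IDR peak 178 bp downstream (signal 138.2, rank 2006). Syx17, which acts in the fusion of autophagosomes with lysosomes, had 147.9 (rank 1726; percentiles 92.65, 94.12 and 94.50; mean 93.8 ± 0.979). Syx4 had 147.4, Syx13 132.2 and the neuronal syntaxin gene Syx1A 115.1, the lowest signal among called members, at rank 2937 of 2964. All 4 other syntaxin genes had candidates that were not kept, Syx5 of the Golgi being the strongest at 75.01. No Syx gene had a promoter summit among the 1482 IDR peaks of higher signal, against 10.4% of protein-coding genes. The count was 2 without replicate 2 (20% of Syx genes, against 21.2% of Vha genes) and 3 without replicate 3 (30%, against 30.3% of Vha and 30.6% of Rab genes). The first place of Syx among the stems was therefore lost in these settings and with the stronger peaks.

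Over the called members, 24 of 46 (52.2%) had a promoter summit among the strongest 2964 of all 3 replicates, 19 in 2 replicates and 3 (Sec5, Sec23 and Vps13) in 1. For called protein-coding genes the share with all 3 was 52.6%. All 46 had a candidate of some rank at the promoter in every replicate, with median percentiles of 94.3, 95.5 and 92.8. Replicate 3 placed the fewest of them among its strongest, 31 against 40 in replicate 1 and 42 in replicate 2, and the lowest percentiles of single members were in replicate 3. Of the 79 members not called, 63 were among the strongest of no replicate, 12 of 1 and 4 of 2 (Rab6, Sec15, Vps20 and Vps50).

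**Figure D4:**
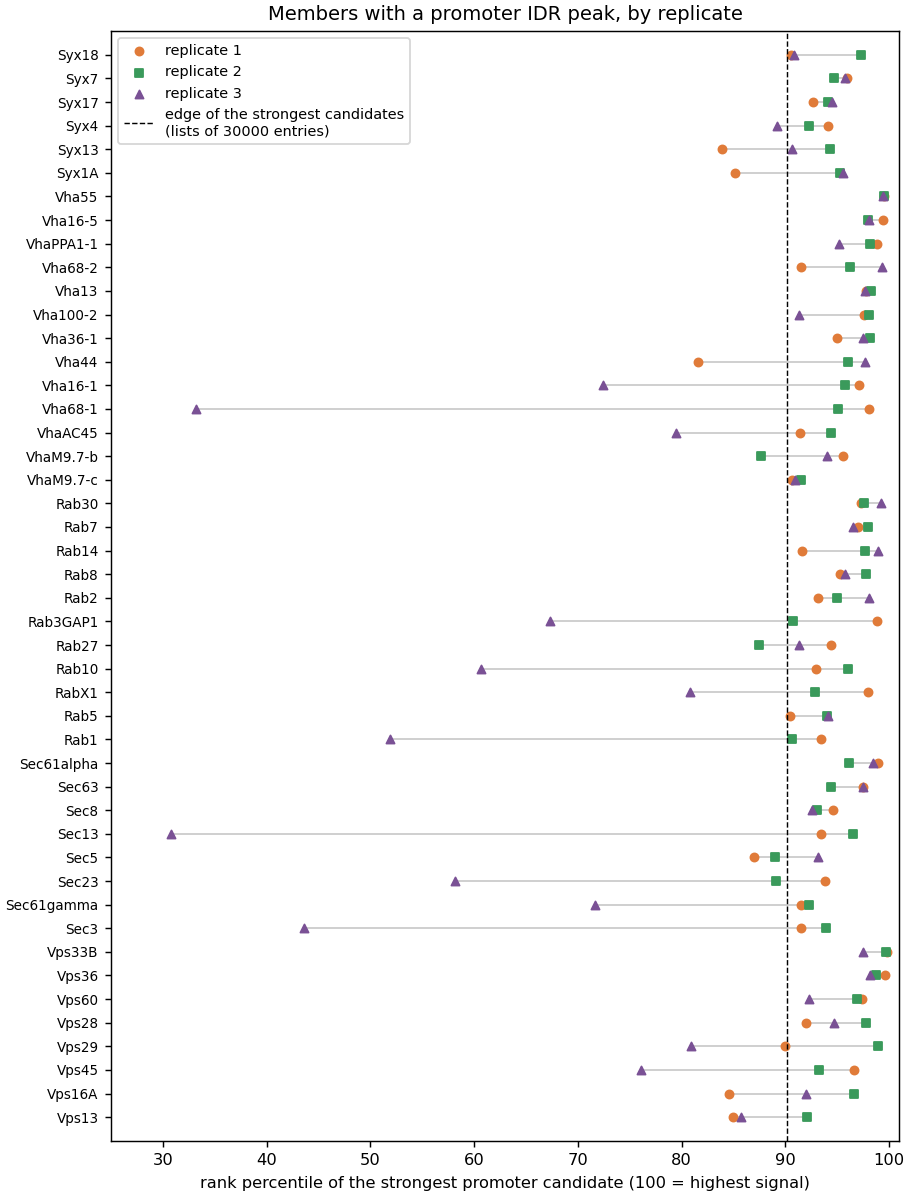
Rank percentile of the strongest promoter candidate (horizontal axis, 100 is the highest signal of a list) in each of the 3 replicates for the 46 called members, ordered by stem and signal. The dashed line is the edge of the 2964 strongest in a list of 30000; Vha55 lay at 99.41 or above in every replicate, while Sec13 and Vha68-1 dropped to 30.77 and 33.21 in replicate 3.

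Summits lay just upstream of the genes. The median offset from the nearest TSS of the member was -65 bp (quartiles -143 and -34), and 42 of 46 (91.3%) were upstream, beside a median of -68 bp and 81.7% for called protein-coding genes. Of the 46 summits, 34 lay between genes. In many cases another gene's promoter was as close. Another protein-coding TSS lay within 500 bp of the summit at 33 of 46 members (71.7%), against 53.5% of called protein-coding genes, and the member's own TSS was the nearest at 27 (58.7%), against 73.1%. Of the strongest gene of each stem, Vha55 alone was nearest to its own peak. The Vps33B summit was nearer to a TSS of Fur1, that of Rab30 to Caper, that of Sec61alpha to Daxx and that of Syx18 to atl. The Vps36 summit was nearer to Liprin-beta. Some neighbours are themselves trafficking genes: Vha55 shares its peak with the sorting nexin gene Snx3, Vha100-2 with the SNARE gene Vti1b, Sec5 with the Golgi tether gene Cog3, and Syx18 with atl, which encodes the endoplasmic reticulum fusion protein atlastin. Others are not, such as mTor at Vha68-1, COX7B of the respiratory chain at Sec3 and TrpRS at Vps16A. Syntaxins were the exception, with no other gene in the window at 5 of 6 called genes, against 5 of 13 for Vha, 1 of 11 for Rab, 1 of 8 for Sec and 1 of 8 for Vps. A peak between 2 such starts cannot be assigned to 1 gene from these data.

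The arrangement of the promoters was therefore split, a choice made after the data were seen. A protein-coding gene on the opposite strand started within 500 bp upstream of 59 of the 125 members (47.2%), against 27.4% of protein-coding genes. Members arranged head to head had an IDR peak in 33 of 59 cases (55.9%), and the other members in 13 of 66 (19.7%). For protein-coding genes the shares were 35.5% (1355 of 3815) and 12.4% (1254 of 10130). Among Rab genes 10 of 16 were called when head to head and 1 of 20 when not. Sec (7 of 11 and 1 of 8), Vps (7 of 15 and 1 of 12) and Vha genes (8 of 13 and 5 of 20) had the same direction. Syx genes had the opposite one, 1 of 4 and 5 of 6. Members with more annotated TSSs were also called more often, 31 of 98 with 1 TSS (31.6%) and 13 of 24 with 2 to 3 (54.2%), against 14.5% and 28.7% of protein-coding genes. A gene with more TSSs has more sequence searched, and a summit between head-to-head starts can count for both genes. Counted at the most upstream TSS only, 46 members (36.8%) had a peak, the same as with all TSSs. Protein-coding genes then had 17%, against 18.7% with all TSSs. How far either split depends on the counting rule was not tested.

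**Figure D5:**
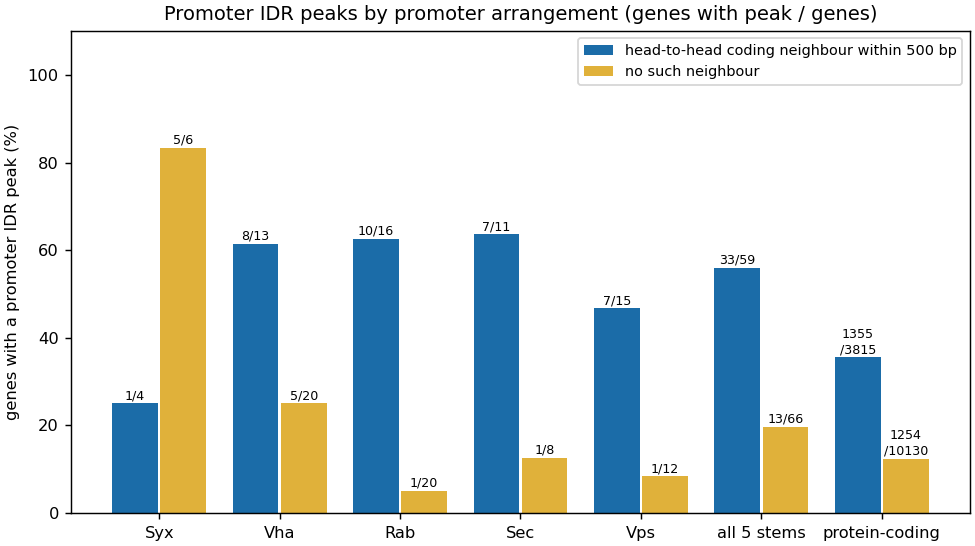
Share of genes with a promoter IDR peak (%, vertical axis) for genes with a protein-coding gene starting on the opposite strand within 500 bp upstream (blue) and for the others (yellow), with the counts above the bars. The share is higher head to head for Vha, Rab, Sec and Vps genes and for protein-coding genes (35.5% against 12.4%), and lower for Syx (1 of 4 against 5 of 6).

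Words of known promoter elements were searched on both strands within 100 bp of the 50 distinct IDR summits at member promoters. CGATA was present at 32 of them (64%), against 46.4% of 2029 summits at promoters of protein-coding genes and 37.1% of 19252 windows of the same length at their TSSs. TATCGATA, which contains CGATA, was present at 9 (18%), against 11.5% and 6.45%. Over the members' promoter summits among each replicate's strongest, the shares were 64.6% ± 6.33 and 19.6% ± 5.39 (SD, n = 3). TATAAA, the TATA box, was present at 10% against 18.6% of summits and 26.9% of windows. Over the replicates' strongest its share was 15.1%, 15.7% and 5.41% in replicates 1 to 3, a mean of 12.1% ± 5.77 (SD, n = 3). GGTCACAC (8% against 10%) and the A tract AAAAAAA (12% against 16.1%) differed less from the other summits. Median GC content around the summits was 41%, against 42.3%. The summits with TATCGATA belonged to Rab30, Rab2, Rab7, Rab8, Rab27, Sec63, Syx7, Syx18 and Vps16A, and none to a Vha gene. The 300 bases from 250 before to 50 after each annotated TSS were also searched, and a gene counted when any of its TSSs had a match. TATCGATA was present at 11 of 36 Rab genes (30.6%), 3 of 10 Syx genes (30%), 6 of 27 Vps genes (22.2%), 3 of 19 Sec genes (15.8%) and 2 of 33 Vha genes (6.06%), against 10.2% of protein-coding genes. Members with CGATA there were called in 40 of 86 cases (46.5%) and members without it in 6 of 39 (15.4%), beside 23.9% and 12.8% of protein-coding genes. Genes with several TSSs had more windows searched, for words and for peaks alike, so this split can depend in part on TSS number. A match describes the letters in the window and does not show that a factor binds there.

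CACGTG, the E-box read by Mitf, a factor known in flies to regulate vacuolar ATPase genes, was looked for as well. In the same 300 bases at any annotated TSS it was present at 5 of 33 Vha genes (15.2%) and at 1 other member, Rab14, against 5.34% of protein-coding genes. The longer TCACGTGA, which contains CACGTG, was present at Vha44 and Vha68-2 and at no other member, and at 28 protein-coding genes in all (0.201%). Both were called, as were 10 of the 28 (35.7%). Of the 5 Vha genes with CACGTG 3 were called, VhaAC45RP and VhaM9.7-d being the others. The Vha44 site lay 40 bp from its summit, and the Vha68-2 site, at another TSS of that gene, lay 1136 bp from its summit. CACGTG was within 100 bp of 1 of the 50 summits (2%), that of Vha44, against 3.45% of promoter summits of protein-coding genes. Within 200 bp the direction was reversed, with 5 of the 50 (10%) against 6.8%.

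The called members were spread over the large arms. On 2L 10 of 21 were called, on 3L 10 of 21, on 3R 14 of 35, on 2R 8 of 25 and on X 4 of 23. The share on X (17.4%) was close to the 17.6% of protein-coding genes there, whereas on each of the other 4 arms it was at least 32%, against 17.7% to 20.3%. The 6 Rab9-related genes without candidates are among the 23 on X.

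Genes of the same pathway whose symbols the rule does not take were read from a list of 52, written with earlier results of these data known. Of these 17 (32.7%) had a promoter IDR peak, against 18.7% of protein-coding genes. Read replicate by replicate, 34.6% had a summit among the strongest of replicate 1, and the share was the same in replicates 2 and 3, against 20.5%, 17.9% and 16.6% of protein-coding genes. With only the pooled candidates that all 3 replicates rank among their strongest, 9 (17.3%) had one, against 9.08% of protein-coding genes. The strongest were AP-2alpha of the clathrin adaptor at the plasma membrane (signal 397, rank 94), deltaCOP of the COPI coat (293, rank 248) and Sar1, the GTPase that starts COPII assembly (263.8, rank 348). The COPI coat had 4 of 7 genes called, clathrin and its adaptors 4 of 9, and SNAREs with their disassembly factors 6 of 16. None of 7 further ESCRT genes and none of 3 further HOPS genes was called. The same held for 2 further exocyst genes and for scat of the GARP tether. The count of the 52 was 9 without replicate 2 (17.3%, against 10.8% of protein-coding genes) and 11 without replicate 3 (21.2%, against 12.8%).

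The 500 bp window excluded a few nearby peaks. Just inside it lay the peaks of VhaM9.7-b and Vha100-2, 382 and 346 bp from their TSSs. Just outside it lay peaks 509 bp from Vha16-1, 535 bp from Syx16, 595 bp from Sec63, 734 bp from Rab26 and 812 bp from Vha14-1. The peak near Rab26 (signal 233.5) lay at the promoter of Pc, which encodes the Polycomb protein, and that near Vha14-1 (211.1) at the promoter of Gmppa. The peak near Syx16 (162.5) lay at the promoter of HERC2, and that near Sec63 (174.2) in coding sequence of pst. Sec63 and Vha16-1 also had a peak inside the window.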

How the data were processed

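HmgD-GFP binding was measured by ChIP-seq in 3 biological replicates of 1 group. Per the labels' protocols, chromatin was sonicated to 200 to 800 bp. The authors deposited, per replicate and for the pooled replicates, narrowPeak lists of candidates (peaks and background, as input to IDR; 28193 entries for replicate 1, 30000 for each other list) and a list of 2964 peaks past the IDR step. The signal in these lists is the authors' deposited value per peak, whose scale varies by list, so that only values of 1 list were compared. For the aligner, the peak caller and the IDR cutoff, nothing is given in the sources used here. The control was not analysed here, and the dm3 lists were not used.

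Summits on dm6 were set against Ensembl 115 TSSs, with transposable elements left out. Each replicate's spread came from its 2964 strongest candidates, and summits were matched between lists within 200 bp. A percentile is 100 for the strongest candidate of a list. Replicates shared between 0.518% and 0.86% of exact summit positions, so none was a copy. No test was made: the design has 1 group, and p-values over chosen genes were not computed. The members, the lists of complexes and of other pathway genes and the 7 words were chosen with earlier results of these data known. Of the 125 members, 86 had a listed complex or family, and all 52 other pathway symbols were matched, 3 by an older symbol.

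Every member with a promoter IDR peak is named. Full values are given for the 3 strongest of each stem, with the strongest candidate per stem that was not kept and the 3 strongest other pathway genes. Sequences are of the strongest peak per stem off 2R and of peaks with TATCGATA, at most 8. Alternatives were other windows, the stronger IDR peaks, a consensus of the replicates, the nearest gene, the most upstream TSS and leaving out each replicate. The scripts (Python 3.11.15, matplotlib 3.10.9) were tested on simulated data.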

Additional observations from a re-analysis of the deposited data

How the results depend on the processing

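The results were recomputed under each alternative, and 25 of the recomputed values moved by less than 1 SD of the replicates while 56 moved by more. For the other pathway genes that SD was 0, the replicates' shares being equal, so each of their 9 alternatives counts as moved by construction. Under each alternative run, the share over all members stayed above that of protein-coding genes. That of single stems did not always: it was lower for Syx with the stronger peaks (0% against 10.4%), for Vps with the nearest gene (11.1% against 13.9%) and for Sec without replicate 1 (10.5% against 11.1%). With a window of 250 bp the members' share was 34.4%, the Vha share 33.3% and the other pathway share 30.8%, against 16% of protein-coding genes. The members' candidate share was 67.2%, against 45.5%. With 1000 bp the Syx share was 70% and the other pathway share 34.6%, against 21.2% of protein-coding genes. The members' candidate share was then 87.2%, against 64.8%. With only the 1482 IDR peaks of higher signal, the shares were 17.6% for members (10.4% of protein-coding genes), 0% for Syx, 27.3% for Vha, 16.7% for Rab, 10.5% for Sec and 19.2% for other pathway genes. With the consensus of the replicates' strongest candidates (1297 sites) they were 16% for members (9.08% of protein-coding genes), 20% for Syx, 18.2% for Vha, 16.7% for Rab, 10.5% for Sec, 14.8% for Vps and 17.3% for other pathway genes. With the nearest gene only they were 22.4%, 50%, 30.3%, 16.7%, 21.1%, 11.1% and 23.1% in that order. With the most upstream TSS only, the members' share stayed at 36.8% and the other pathway share was 30.8%, against 17% of protein-coding genes.

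Leaving out the support of each replicate gave 18.4% to 29.6% for members, 20% to 50% for Syx, 21.2% to 30.3% for Vha, 19.4% to 30.6% for Rab, 10.5% to 26.3% for Sec, 14.8% to 29.6% for Vps and 17.3% to 25% for other pathway genes, against 10.8% to 12.8% of protein-coding genes. These settings, the consensus and the stronger peaks hold fewer peaks by construction. Within 50 bp of the summit the word shares were 44% for CGATA, 6% for GGTCACAC, 2% for TATAAA and 4% for AAAAAAA. Promoter summits of protein-coding genes had 32.6%, 5.57%, 8.33% and 6.85%. Within 200 bp the members' shares were 24% for TATCGATA, 80% for CGATA, 10% for GGTCACAC and 10% for CACGTG, against 15%, 61.4%, 13.2% and 6.8%. TCACGTGA had 4%, TATAAA 28% and AAAAAAA 22%, against 0.345%, 37.9% and 33.8%. A wider window holds more words by construction. No paired analysis was possible because the series has 1 group. Without read counts, an absent peak may reflect depth, which cannot be told from these lists, and peaks between head-to-head genes cannot be assigned to either.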
